A study of Rattus norvegicus with 6 samples.

Results

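The cells described here are those of the rat testis in which Kansl1, RGD1563056 and Gmfg stood highest, a class labelled early elongating spermatids. The members were chosen by expression: each of the 30 genes that make up 10 sets of 3 was turned into a z-score over all cells of all libraries, on the deposited normalized values. A cell joined the set with the highest mean z-score, and set 7 holds Kansl1, RGD1563056 and Gmfg. This rule found 1116 of 11744 cells. The study measured gene expression in single cells of testicular tissue from rats of the SD laboratory strain with the Singleron GEXSCOPE microfluidic method. The control group holds 3 libraries, each named for 1 normal rat without treatment, and the stressed group holds 3 libraries, each named for 1 rat after terrified-sound induced psychological stress. The sources used here give no age, no length of the stress and no time from stress to sampling. Stressed replicate 1 stood apart from the other libraries before any comparison, with 409 cells against 1801 to 2506 in the others, and it held only 15 cells of the class.

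A spermatid is the haploid cell that follows meiosis. As it elongates, its histones are acetylated and removed, transition proteins take their place and protamines then pack the DNA. The acrosome, a secretory cap made in the round spermatid, spreads over the nucleus, the manchette of microtubules shapes the head, and the tail builds outer dense fibres and a fibrous sheath. Transcription ends during elongation, so many proteins of the late spermatid are made from stored mRNA. Kansl1 is the scaffold of the NSL complex, in which the acetyltransferase Kat8 acetylates histone H4. Gmfg, glia maturation factor gamma, belongs to the cofilin family and removes actin branches made by the Arp2/3 complex.

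Promoter windows of the RefSeq table on build GRCr8 run from 250 bases before to 50 bases after an annotated start. Kansl1 and Gmfg had 1 each, RGD1563056 was not matched, and 12 of the 15 leading genes described further on had 15 windows in all. Clip4, a member of the family of microtubule plus-end proteins, is shown as a leading gene of the class that the rule did not use. Capitals mark the motifs searched on both strands: TGACG, the core of the cAMP response element bound by Crem and its relatives, GTTGCC, a core of the X-box bound by Rfx factors, the TATA box TATAAA, and CCAAT. The 250 bases before the start, read 5′ to 3′ on the gene's strand, are these.
Kansl1, chr10:89868621-89868870, minus strand: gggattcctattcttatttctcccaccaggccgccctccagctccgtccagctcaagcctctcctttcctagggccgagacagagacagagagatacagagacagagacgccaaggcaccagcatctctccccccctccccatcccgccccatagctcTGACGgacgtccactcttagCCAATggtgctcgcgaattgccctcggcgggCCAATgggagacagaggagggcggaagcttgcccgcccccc
Gmfg, chr1:92861064-92861313, plus strand: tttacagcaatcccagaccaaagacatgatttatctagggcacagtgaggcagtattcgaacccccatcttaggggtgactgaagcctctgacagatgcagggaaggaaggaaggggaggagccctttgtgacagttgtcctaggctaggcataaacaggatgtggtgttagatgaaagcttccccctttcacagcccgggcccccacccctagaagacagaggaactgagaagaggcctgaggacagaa
Clip4, chr6:29449272-29449521, minus strand: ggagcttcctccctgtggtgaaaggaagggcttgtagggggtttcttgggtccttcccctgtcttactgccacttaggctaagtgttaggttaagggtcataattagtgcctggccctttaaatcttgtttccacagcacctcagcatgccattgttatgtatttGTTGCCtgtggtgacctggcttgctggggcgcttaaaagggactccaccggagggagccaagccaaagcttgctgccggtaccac

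The Kansl1 window held 1 stretch of TGACG together with CCAAT, the Gmfg window held none of the motifs, and the Clip4 window held GTTGCC. Of the 33469 windows in the table, 21.2% held TGACG, 12.2% held GTTGCC, 14.2% held TATAAA and 37.5% held CCAAT. Of the 15 windows of leading genes, 6 held TGACG, those of Morn4, Erich3, Coq10b, Secisbp2, Ilrun and Rp2. GTTGCC was in 4 of them, TATAAA in 2 and CCAAT in 5. The full element TGACGTCA, which contains TGACG, was in 1.83% of all windows and in 1 of the 15, that of Ilrun. These matches describe the letters of the windows only.

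The values of the 3 genes of the rule chose the cells, so they are given as a description. Kansl1 stood at 261 ± 58.1 CPM, the counts of a gene per 1000000 counts summed over the class cells of a library (mean ± SD over the 5 libraries with at least 20 cells). Its values in the control libraries, in the order of their replicate numbers, were 261, 178 and 338 CPM, and those in stressed replicates 2 and 3 were 248 and 283 CPM. Control replicate 2 was lowest and control replicate 3 highest, and the stressed values lay between them. Set 6, the cells labelled as starting elongation (Fam71a, Dcdc2c, Mgat4e), held 96.9 CPM of Kansl1, and set 8, the elongating cells (Tnp2, Cst13, Prss58), held 58.6 CPM. Kansl1 was at 26.8 CPM in set 5 and at 2.17 CPM in set 4, and back at 12.6 CPM in set 9. A count of it was found in 52.7% of set 6 cells and in 31.0% of set 8 cells.

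RGD1563056, for which the tables give no other symbol, stood at 555, 703 and 550 CPM in the control libraries and at 504 and 455 CPM in the stressed libraries. It had a broader shoulder on the earlier side, with 232 CPM in set 5 and 417 CPM in set 6, and 106 CPM in set 8. Gmfg stood at 643, 599 and 523 CPM in the control libraries and at 612 and 549 CPM in the stressed libraries. It trailed on the later side, with 386 CPM in set 6, 257 CPM in set 8 and 145 CPM in set 9. The peak in set 7 was fixed by the rule.

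**Figure D1:**
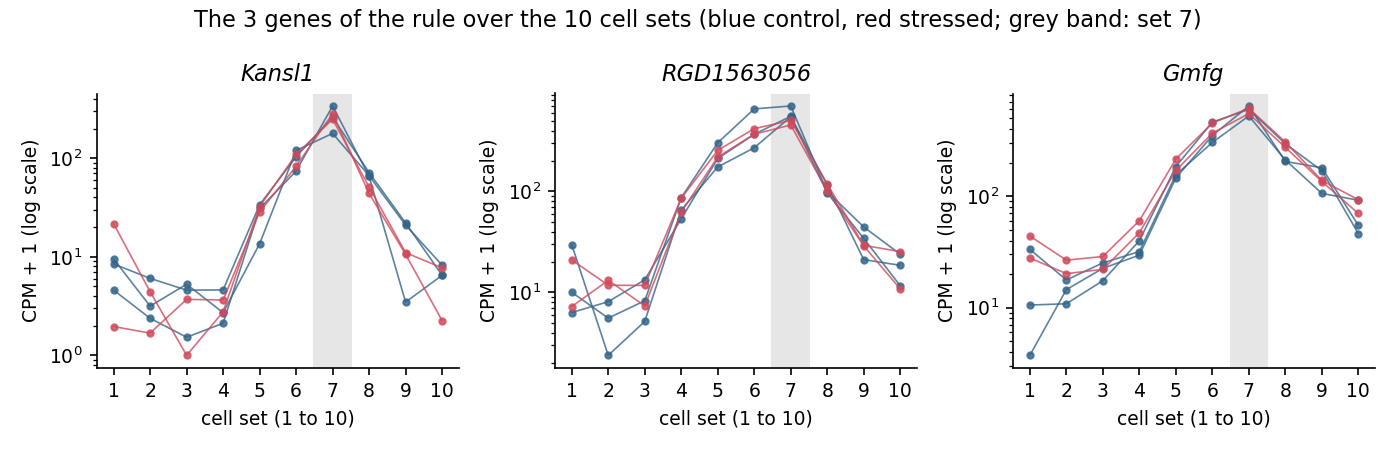
CPM + 1 on a log axis of Kansl1, RGD1563056 and Gmfg in each of the 10 sets, 1 point for each library with at least 20 cells in that set, lines joining the sets of a library. All 3 genes peak in set 7, which they defined, and RGD1563056 climbs from set 4 while Kansl1 climbs from set 5.

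A count of Kansl1 was found in 90.4% of class cells and in 16.1% of all other cells. RGD1563056 was found in 93.3% against 31.3%, and Gmfg in 96.3% against 42.5%. When each cell was thinned to 10000 counts, which no class cell fell short of, the shares in the class were 76.3%, 88.9% and 92.8%. The neighbouring sets held many such cells too, with thinned shares of 36.3%, 75.3% and 74.0% in set 6. In set 8 they were 20.9%, 27.1% and 60.4%. In set 3, round spermatids marked by Tssk5 and Lrrc34, the thinned shares were 0.954%, 4.01% and 8.97%, with a median of 34431 counts per cell against 40695.5 in the class. All 3 genes were found together in 913 class cells (81.8%), 2 of them in 183 cells and 1 in 20 cells. Control replicate 2 had all 3 in 98.6% of its class cells and control replicate 3 in 62.4%, and their class cells had a median of 2667 and 1395 detected genes.

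The border of the class was soft. In 144 members the class score led the next set by less than 0.1, and 132 cells outside missed it by less than 0.1. Kansl1 was found in 79.9% of the members just inside and in 69.7% of the cells just outside, and Gmfg in 93.8% and 92.4%. The next-best set was 8 in 560 members (50.2%), 6 in 270 (24.2%) and 9 in 192 (17.2%). Control replicate 2 again differed, with set 9 next in 39.2% of its members and set 8 in 22.6%. A lead of at least 0.5 was seen in 475 members (42.6%), and z-scores taken within each library kept 1015 of the members (90.9%).

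Within the class, cells whose next-best set was 6 held more RNA of some genes of earlier stages than cells whose next-best set was 8, as a description of a sorting made on expression. Crem, the transcription factor of round spermatids, stood at 101 ± 23.6 CPM in the former and 53.4 ± 13.2 CPM in the latter (SD, n = 5 libraries). Acrv1, an acrosomal protein, stood at 20.5 and 8.62 CPM. Hils1, a spermatid linker histone, stood at 3286 and 2241 CPM. RGD1563056 stood at 674 and 480 CPM, while Gmfg, at 607 and 575 CPM, and Kansl1, at 290 and 272 CPM, were close. Akap4 and Spem1 are genes of later stages. Akap4, of the fibrous sheath, stood at 1248 ± 298 and 1389 ± 292 CPM, and was higher with set 8 next in each of the 5 libraries. Spem1, of late spermatids, stood at 559 ± 92.2 and 596 ± 86.2 CPM, and its direction differed between libraries. Cells with set 9 next held 44396 ± 7626 CPM of Tnp1 (n = 4), against 27815 CPM with set 6 next and 28796 CPM with set 8 next. Control replicate 3, with fewer than 20 cells with set 9 next, is only in the latter 2 means, where it was lowest (15959 and 18908 CPM). In each of the 4 libraries the value was highest with set 9 next. The lead was small in stressed replicate 2, at 34081 CPM against 33665 CPM with set 8 next.

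The label was checked against markers of spermatids. Of the 12 elongating markers found, the 5 that were in no set's rule and averaged at least 5 CPM over sets 6 to 8 were Tnp1, Akap4, Gapdhs, Hils1 and Spem1. Of these, 4 were above set 6 in all 5 libraries and Hils1 was below it. Against set 8, 1 of them was above in all 5 libraries and 0 below, with a median log2 difference of -0.04. As a group these markers thus did not set the class apart from set 8. All 4 round spermatid markers outside the rule, Acrv1, Spaca1, Catsper3 and Spaca3, were below set 6 in all 5 libraries. Above set 8 in all 5 libraries were 2 of them, and 0 were below it. Over all 5318 genes outside the rule at that level, 11.2% were above set 6 in every library and 40.4% below it, and 31.3% were above set 8 and 7.03% below it. Depth per cell shifted little between sets 6 and 7, with median counts of 43558 and 40695.5, and was 33951 in set 8. At 10000 counts per cell the median number of genes was 1637 in set 6, 1482.5 in the class and 1121.5 in set 8, against 2170.5, 1981 and 1378 before thinning.

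Of the 7 testis histones, transition proteins and protamines outside the rules, 4 were above set 6 in all 5 libraries and 2 below it, and 1 was above set 8 and 4 below it. Over all 5318 genes the shares were 11.2% and 40.4% for set 6, and 31.3% and 7.03% for set 8. Tnp1, transition protein 1, stood at 30371, 45032 and 17648 CPM in the control libraries and at 32413 and 29653 CPM in the stressed libraries. It was above set 6 (20432 ± 8440 CPM) in all 5 libraries, above set 8 (29903 ± 10351 CPM) in 3, and highest in set 9. Tnp2 and Prm2 belong to the rules of sets 8 and 9, so their place beside those sets was set by the sorting and supports nothing. They stood at 18723 ± 2209 and 16720 ± 3489 CPM in the class. Prm3, protamine 3, at 4025 ± 599 CPM, Hmgb4, a testis HMG-box protein, at 8111 ± 3052 CPM, and H1f7, the linker histone H1T2, at 1008 ± 171 CPM were above set 6 and below set 8 in every library. Hils1 went the other way, at 2574 ± 704 CPM in the class, 3399 ± 842 CPM in set 6 and 986 ± 198 CPM in set 8.

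Of 12 regulators of chromatin, 1 was above set 6 in all 5 libraries (Phf7, a histone ubiquitin ligase, 3288 ± 599 CPM) and 5 were below it, near the 11.2% and 40.4% of all genes. Chd5, a remodeller needed for histone removal, stood at 164 CPM in set 6, 97.6 ± 24.7 CPM in the class and 40.9 CPM in set 8. Psme4, the proteasome activator PA200, stood at 621 ± 62.6 CPM and was above set 6 in 4 libraries. Of the 5 NSL complex genes and partners counted beside Kansl1, none averaged highest in the class, beside 4.51% of all 5318 genes. In all 5 libraries, 0 were above set 6 and 2 below it, beside 11.2% and 40.4% of all genes. Above set 8 in all libraries was 1, beside 31.3%. Kat8 stood at 151, 173 and 146 CPM in the control libraries and at 136 and 145 CPM in the stressed libraries, against 134 ± 24.0 CPM in set 6 and 115 ± 25.2 CPM in set 8. Kansl2 stood at 5.54 ± 2.25 CPM and Kansl3 at 11.1 ± 4.40 CPM in the class, and both were highest in set 1.

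Of the genes of actin branching and debranching beside Gmfg, 1 of 9 was above set 6 in all libraries and 3 were below, again near the 11.2% and 40.4% of all genes. Gmfb, the other glia maturation factor, stood at 6.53 ± 3.55 CPM in the class and at 41.9 ± 19.4 CPM in set 6, a mean log2 difference of -2.47 ± 0.54 (SD, n = 5). Cfl1, cofilin 1, stood at 94.0 CPM in set 6 and 56.3 ± 8.77 CPM in the class. Capzb, a subunit of the actin capping protein, was higher in the class, at 964 ± 129 CPM against 786 CPM, and its testis partner Capza3 averaged highest in the class at 1063 ± 202 CPM.

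Acrosome genes were mostly below set 6. Of 17, 14 were below set 6 in every library and none was above it, beside 40.4% and 11.2% of all genes. Above set 8 in every library were 9, beside 31.3%. The median log2 difference was -1.25 against set 6 and 0.49 against set 8, beside -0.29 and 0.24 over all 5318 genes. Spaca4, a sperm membrane protein of the acrosome, stood at 93.3, 61.2 and 143 CPM in the control libraries and at 62.7 and 75.4 CPM in the stressed libraries. Set 6 held 464 ± 90.6 CPM of it, above every class value, and set 8 held 44.1 ± 14.7 CPM. Eqtn, equatorin, stood at 39.6 ± 12.5 CPM between 165 CPM in set 6 and 15.0 CPM in set 8. Zpbp2 and Tex101 were exceptions, each above set 6 in 3 of 5 libraries.

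Of 12 genes of mRNA storage, 2 were above set 6 in all 5 libraries and 6 below it. Of 12 transcription regulators, 1 was above it and 4 below, beside 11.2% and 40.4% of all genes. The median log2 differences were -0.58 and -0.19, beside -0.29 over all genes. Pabpc1 and Crem were 2 genes far lower in the class than in set 6. Pabpc1, the poly(A) binding protein, stood at 404, 381 and 486 CPM in the control libraries and at 582 and 445 CPM in the stressed libraries. Set 6 held 2414 ± 574 CPM and set 8 held 217 ± 41.5 CPM, a mean log2 difference of -2.38 ± 0.20 and 1.08 ± 0.05. Crem stood at 69.9, 77.0 and 77.9 CPM in the control libraries and at 56.7 and 70.3 CPM in the stressed libraries, with 194 ± 36.9 CPM in set 6 and a peak of 640 CPM in set 4. Sox30, a regulator of the round spermatid programme, stood at 21.5 ± 5.97 CPM, against 69.7 CPM in set 6. Samd4a, an RNA-binding protein of the Smaug family, was higher than in set 6 in all libraries (1402 ± 124 CPM against 1120 CPM), and Sox5 was too (2763 ± 241 CPM against 2113 CPM).

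Of the 14 tail genes outside the rules, 7 were above set 6 in all libraries and 4 below it, and of the 13 genes of the perinuclear theca and testis actin-related proteins 5 were above it and 6 below, beside 11.2% and 40.4% of all genes. In each list 2 averaged highest in the class, beside 4.51% of all 5318 genes. They were Akap3 and Spa17 of the tail and Actrt1 and Cylc1 of the theca. Akap3, an anchor of the fibrous sheath, stood at 1480 ± 157 CPM against 1189 CPM in set 6 and 1456 CPM in set 8. Spa17, a sperm autoantigen of the sheath, stood at 4819 ± 672 CPM, against 4036 and 4736 CPM. Of the 206 listed genes outside the rules, 2 were above both sets 6 and 8 in all 5 libraries, Actrt1 and Cylc1. The count became 5 when control replicate 3 or stressed replicate 2 was left out. The share of all genes above both sets in every library was not computed, so this count is a description only. Actrt1, an actin-related protein of the theca, stood at 107 ± 16.7 CPM against 76.8 and 87.5 CPM, and Cylc1, cylicin 1, at 346 ± 73.2 CPM against 293 and 257 CPM. Actrt3 had its peak in set 6 (1398 ± 175 CPM), remained at 1226 ± 189 CPM in the class and was at 477 ± 66.7 CPM in set 8.

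Among the manchette and nuclear envelope genes, 3 of 17 were above set 6 in all libraries, Kif27, Cep131 and Rnf19a, and 8 were below. These counts were near the 11.2% and 40.4% of all genes, and the median log2 difference was -0.25 beside -0.29. Sun3, of the nuclear envelope bridge to the manchette, stood at 121 ± 24.9 CPM between 270 CPM in set 6 and 75.6 CPM in set 8. Clip1, the microtubule plus-end protein CLIP-170, stood at 708 ± 154 CPM between 1168 and 357 CPM.

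**Figure D2:**
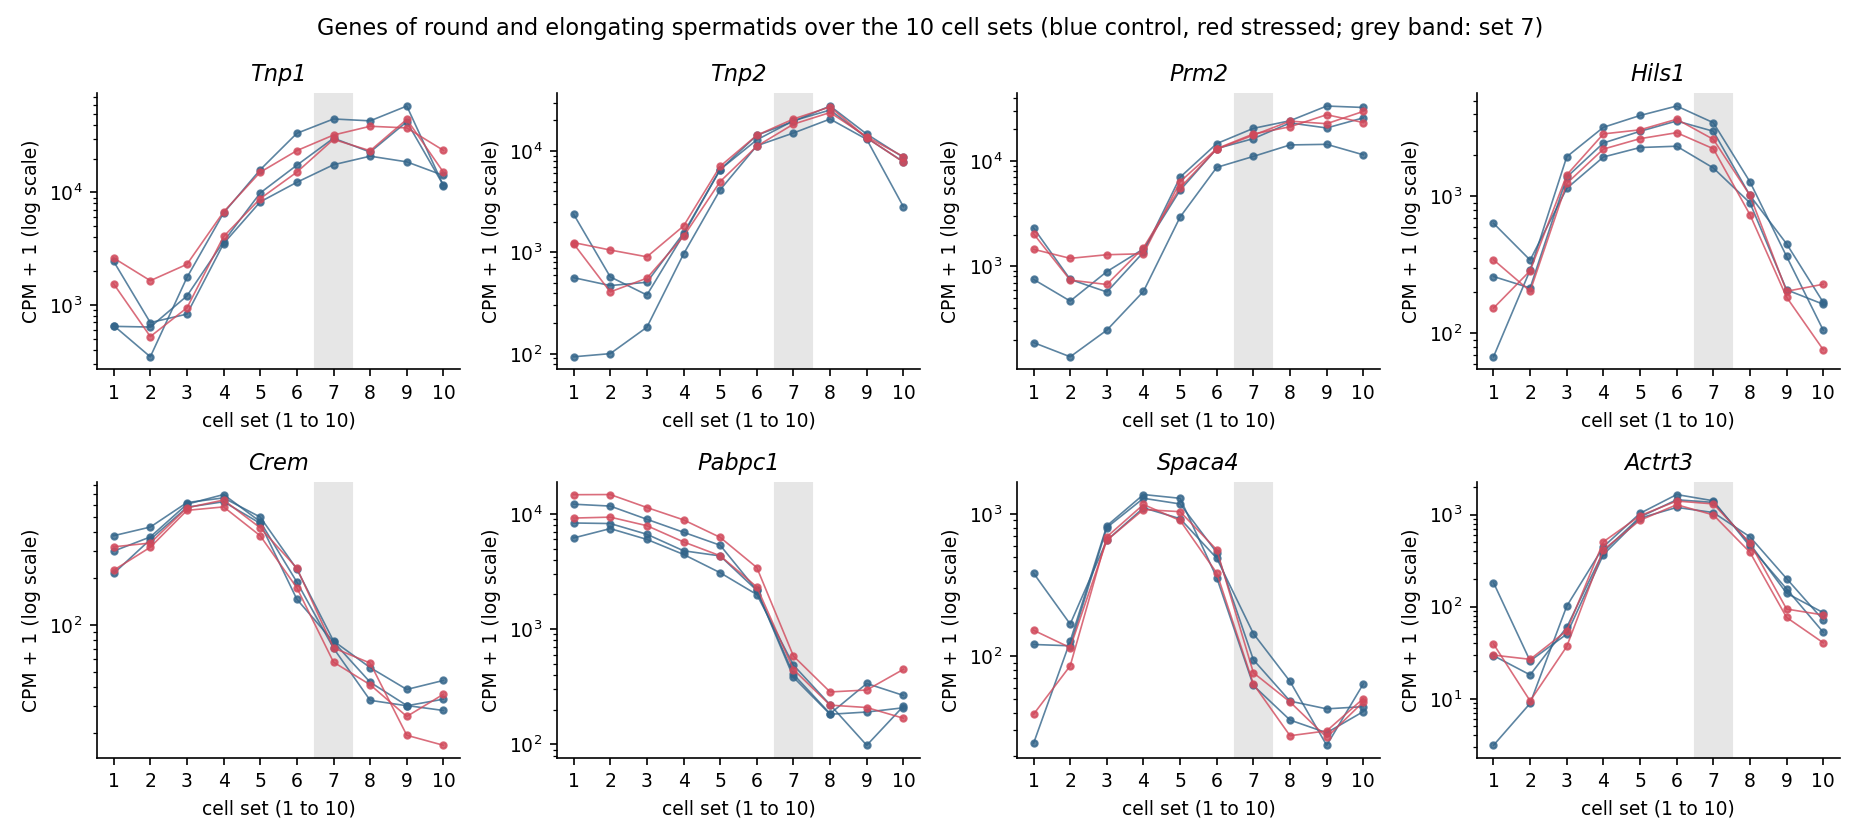
CPM + 1 on a log axis of 8 genes of round and elongating spermatids in each of the 10 sets, 1 point for each library with at least 20 cells in that set. In set 7 Pabpc1, Crem and Spaca4 are far below their earlier levels, and Hils1 and Actrt3 are close to their peaks. Tnp2 and Prm2 are below their levels in set 8, but both belong to the rules of later sets. Their place was set by the sorting and supports nothing.

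Genes outside the rule that averaged highest in the class were few and led by little. Of the 5318 genes, 240 (4.51%) averaged highest there, against 461 in set 6 and 233 in set 8. Among 1631 genes with symbols and at least 50 CPM in the class, 15 (0.920%) were above every other set in all 5 libraries. The 15 leading genes by mean log2 ratio to the highest other set had ratios of only 0.20 to 0.42, and 8 of them led in all 5 libraries and 7 in 4. They were Tmem64, Hemgn, Clip4, Coq10b, Secisbp2, Map7d3, Erich3, Cep85l, Lsp1, Cylc1, Rp2, Ilrun, Fam71b, Ccdc28a and Morn4.

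Hemgn, hemogen, a nuclear protein of blood-forming and germ cells, stood at 2110, 2688 and 2008 CPM in the control libraries and at 2232 and 2443 CPM in the stressed libraries. Set 6 held 1784 CPM and set 8 held 1586 CPM, and every class value was above that of either set in the same library. Clip4 stood at 852, 1030 and 508 CPM in the control libraries and at 812 and 856 CPM in the stressed libraries, against 599 CPM in set 6 and 638 CPM in set 8. Cep85l, a centrosomal protein, stood at 1470 ± 123 CPM against 1228 and 1199 CPM. Erich3, a protein of cilia, stood at 465 ± 33.5 CPM and its highest other set was 6, with 391 CPM. Secisbp2, which lets selenoprotein mRNAs be read, stood at 189 ± 23.6 CPM, and Coq10b, a coenzyme Q binding protein, at 75.6 ± 19.5 CPM. Tmem64 had the highest mean ratio but rested on lower counts, 73.4 ± 31.8 CPM, and in control replicate 3 it was below another set.

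**Figure D3:**
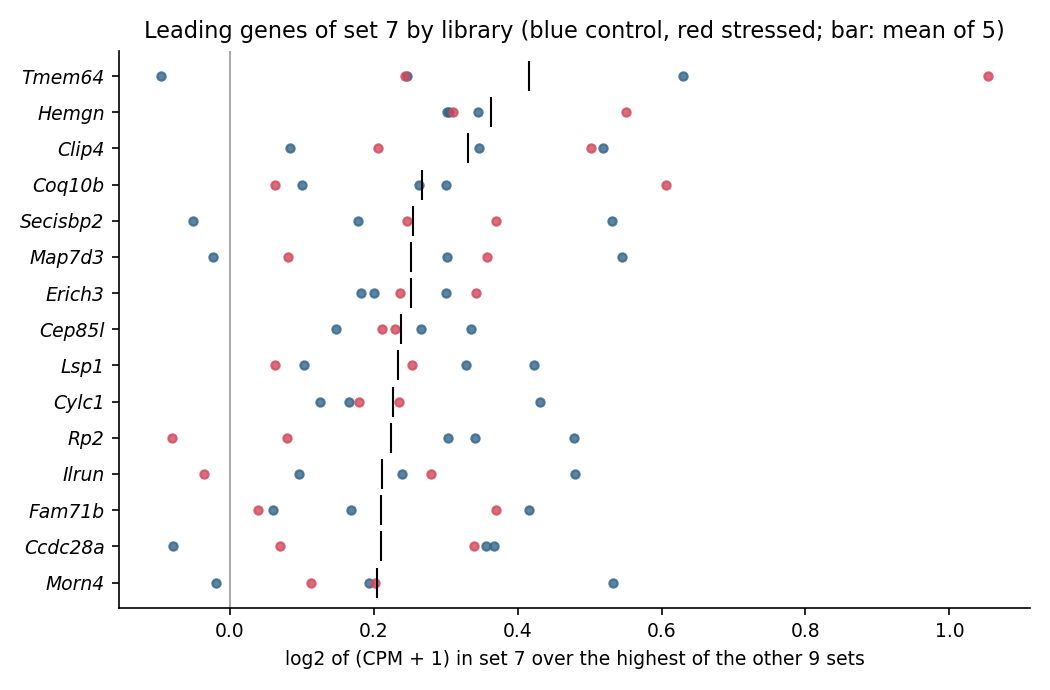
For the 15 leading genes, log2 of CPM + 1 in set 7 over that of the highest of the other 9 sets with at least 20 cells, 1 point for each of 5 libraries, with the mean as a bar. Means lie between 0.20 and 0.42, and 7 of the genes have 1 library below 0.

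Markers of other testis cells were counted in the class at the following levels. Of 18 macrophage markers, Csf1r, Ptprc and Cd163 had no count in the class cells of the 5 larger libraries. Markers given as 0 below are likewise those without a count in these 5 libraries. The 18 summed to 3584 to 4713 CPM over the 6 libraries, of which Aif1 alone gave 3522 to 4268 CPM. Aif1 stood at 2725 to 3751 CPM in set 6 and at 3479 to 4897 CPM in set 8. Without Aif1, the other 17 summed to 49.0 to 69.8 CPM in the 5 larger libraries and to 446 CPM in stressed replicate 1. The 13 Sertoli markers summed to 99.9 to 132 CPM, mostly from Tf, with Sox9, Amh, Inha, Fshr and Gata4 at 0 in the 5 larger libraries. The 10 Leydig markers summed to 12.5 to 24.7 CPM, with Cyp17a1, Cyp11a1 and Hsd17b3 at 0 in the 5 larger libraries. The 9 T and natural killer cell markers summed to 0 to 3.05 CPM, and the 10 stromal markers to 2.46 to 11.7 CPM in the 5 larger libraries and 26.0 CPM in stressed replicate 1. Endothelial markers summed to 1.90 to 24.7 CPM and peritubular myoid markers to 13.7 to 36.1 CPM. Red blood cell markers summed to 1.37 to 13.6 CPM, and the spermatogonial markers to 64.8 to 130 CPM. The part of RNA from other cells in the results was not tested.

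The share of cells in the class varied more between rats of a group than between the groups. The class made up 7.98% of cells in control replicate 1 (187 of 2342 cells, Wilson 95% interval 6.95% to 9.15%), 11.8% in control replicate 2 (212 of 1801, 10.4% to 13.3%) and 7.26% in control replicate 3 (178 of 2453, 6.30% to 8.35%). It made up 3.67% in stressed replicate 1 (15 of 409, 2.23% to 5.96%), 14.6% in stressed replicate 2 (367 of 2506, 13.3% to 16.1%) and 7.03% in stressed replicate 3 (157 of 2233, 6.04% to 8.17%). The lowest and the highest share were both in stressed libraries. Group means were 9.004 ± 2.42% and 8.45 ± 5.62% (SD, n = 3 each), and the stressed mean minus the control mean was -0.556 percentage points (2-sided exact permutation p = 0.8, where 0.1 is the smallest p of 3 against 3). Its sign turned without control replicate 2 (0.827 points), without stressed replicate 1 (1.83 points) or without stressed replicate 3 (0.152 points), and it was -3.65 points without stressed replicate 2. The intervals cover counting error only, and shares are of the cells captured and kept by the authors.

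**Figure D4:**
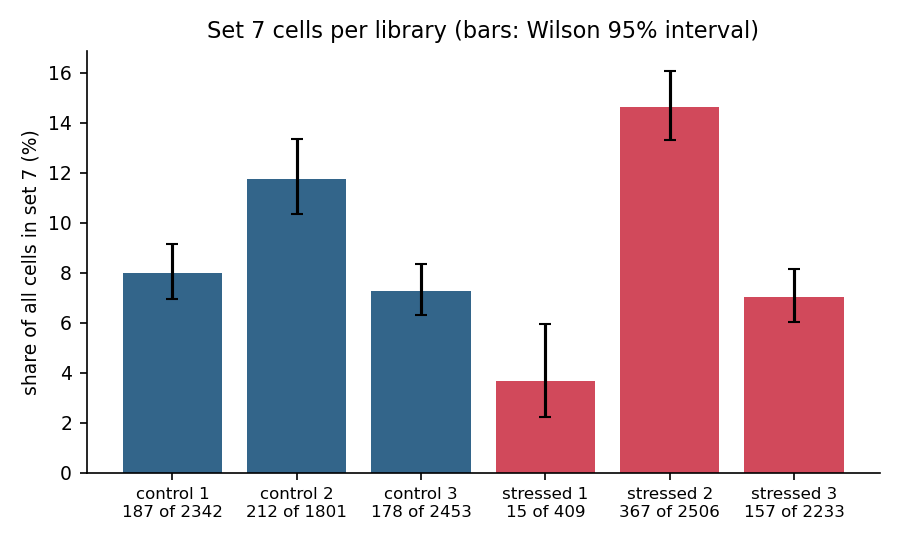
Share of all cells of a library that belong to set 7, in percent, 1 bar for each of the 6 libraries, with the Wilson 95% interval for counting error and the number of cells below each bar. The stressed libraries hold both the lowest bar, 3.67%, and the highest, 14.6%.

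Stress was then compared within the class on the summed counts of each library, 3 control and 2 stressed, since stressed replicate 1 with 15 cells was below the minimum of 20 and was left out. No gene passed edgeR's quasi-likelihood test with Benjamini-Hochberg adjustment, 0 of 8440 genes or 0%. At an unadjusted p under 0.05 there were 200 genes, 2.37%. Groups did not overlap for 1510 genes (17.9%), with 9.15% higher and 8.74% lower in all stressed libraries. DESeq2 called 4 genes and edgeR 10 without control replicate 3. The genes named next are those with symbols at the smallest p in each direction, and their values, in CPM scaled by TMM factors, describe these libraries. None of the genes of the rule is read as a result here.

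Dusp21, a testis dual-specificity phosphatase, had the smallest p of the genes with symbols. It stood at 62.4, 64.6 and 66.7 CPM in the control libraries and at 21.7 and 22.0 CPM in the stressed libraries, so the groups did not overlap. The log2 difference, stressed minus control, was -1.56 with a standard error of 0.27 (edgeR adjusted p = 0.838). In the 15 class cells of stressed replicate 1, outside the fit, it stood at 65.8 CPM unscaled, at the control level, with a count in 5 cells. Dusp21 was found in 54, 105 and 26 class cells of the control libraries and in 43 and 21 cells of stressed replicates 2 and 3. In set 8 it averaged 16.4 CPM in the controls and 7.05 CPM in stressed replicates 2 and 3, unscaled. The call passed without control replicate 3 (edgeR adjusted p = 0.0313) and by DESeq2 (adjusted p = 0.000952).

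A transcript listed as AABR07001902.1, named after its values were seen because it had the smallest p of all genes, stood at 0.656, 1.58 and 2.18 CPM in the control libraries and at 16.5 and 17.3 CPM in the stressed libraries. In stressed replicate 1 it stood at 21.9 CPM unscaled, in 7 of 15 cells, beside the other stressed libraries. Its log2 difference was 3.51 with a standard error of 0.58 (edgeR adjusted p = 0.838, 0.0103 without control replicate 3, and 0.000119 by DESeq2). The neighbouring sets had a difference in the same direction, in unscaled CPM. In set 6 the transcript averaged 2.18 CPM in the controls and 22.6 CPM in stressed replicates 2 and 3. In set 8 it averaged 1.52 and 16.9 CPM.

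Krt25, a keratin, stood at 60.6, 62.9 and 60.1 CPM in the control libraries, at 95.5 and 162 CPM in the fitted stressed libraries and at 111 CPM in stressed replicate 1. All stressed values were above all control values, with a log2 difference of 1.07 and a standard error of 0.27 (edgeR adjusted p = 0.999). Cfap57, a cilia and flagella protein, stood at 132, 128 and 148 CPM and at 220 and 187 CPM, with 191 CPM in stressed replicate 1. Clic5, a chloride channel family protein, stood at 26.2, 20.6 and 41.2 CPM and at 58.6 and 58.0 CPM, with 54.8 CPM in stressed replicate 1. H3c1, a histone H3 gene, stood at 38.1 ± 9.58 CPM in the controls and 66.7 ± 2.43 CPM in the 2 stressed libraries, but at 12.3 CPM in stressed replicate 1. In sets 6 and 8 the mean of the 2 stressed libraries was also above the control mean for each of these genes. Krt25 averaged 88.8 and 129 CPM, control then stressed, in set 6, and 61.1 and 104 CPM in set 8, unscaled. Clic5 averaged 16.7 and 32.7 CPM in set 6, and 28.8 and 42.1 CPM in set 8.

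Among the genes at smaller levels, Stx17, the syntaxin of autophagosomes, stood at 1.49 ± 1.00 CPM in the controls and 7.71 ± 1.56 CPM in the stressed libraries. Tfdp2, a partner of E2F factors, stood at 5.42 ± 2.01 and 14.8 ± 3.71 CPM. Slc6a18, an amino acid transporter, stood at 0.611 ± 0.304 and 5.04 ± 0.895 CPM, and Mrpl51, a mitochondrial ribosomal protein, at 0.225 ± 0.295 and 3.20 ± 0.288 CPM. These 2 had a count in 39 and 14 class cells in all. In stressed replicate 1, unscaled, both stood at 0, Stx17 at 12.3 CPM and Tfdp2 at 8.23 CPM. In sets 6 and 8 the stressed mean was below the control mean for Mrpl51. It was above the control mean there for Stx17, Tfdp2 and Slc6a18.

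Among the genes with lower stressed values, Ogdh, a subunit of the 2-oxoglutarate dehydrogenase, stood at 37.3, 30.6 and 29.6 CPM in the controls and at 14.5 and 16.9 CPM in the stressed libraries, but at 58.9 CPM in stressed replicate 1. Zcwpw2, a histone reader, stood at 6.45, 2.98 and 12.5 CPM and at 1.40 and 0.528 CPM. In set 6 Zcwpw2 averaged 6.45 CPM in the controls and 9.48 CPM in stressed replicates 2 and 3, unscaled, and in set 8 2.45 and 1.02 CPM. Myo7b, Banf1 and Arhgef37 each averaged under 3 CPM in the controls and had a count in 2 stressed cells at most outside stressed replicate 1. In stressed replicate 1 Myo7b stood at 2.74 CPM unscaled, near its control mean of 2.90 CPM, Banf1 at 1.37 CPM and Arhgef37 at 0. In control replicate 3 each rested on 1 cell, with 16, 25 and 22 counts, and 1 cell gave 33 of the 38 Banf1 counts in control replicate 1. Fgd5 had no count in the fitted stressed libraries. Taking 3 counts in the summed group as the floor, it was 12.2-fold lower there. That floor treats counts as independent, while the 47 control counts came from 17 cells, so it is no firm bound. The olfactory receptor gene Olr1696 stood at 0, 7.36 and 18.0 CPM in the controls and at 0 in both fitted stressed libraries, so the groups touched. In stressed replicate 1 it stood at 4.11 CPM unscaled, with a count in 2 of 15 cells. It averaged 8.43 CPM in the controls of set 6 and 10.1 CPM in those of set 8. In both sets it was at 0 in stressed replicates 2 and 3.

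**Figure D5:**
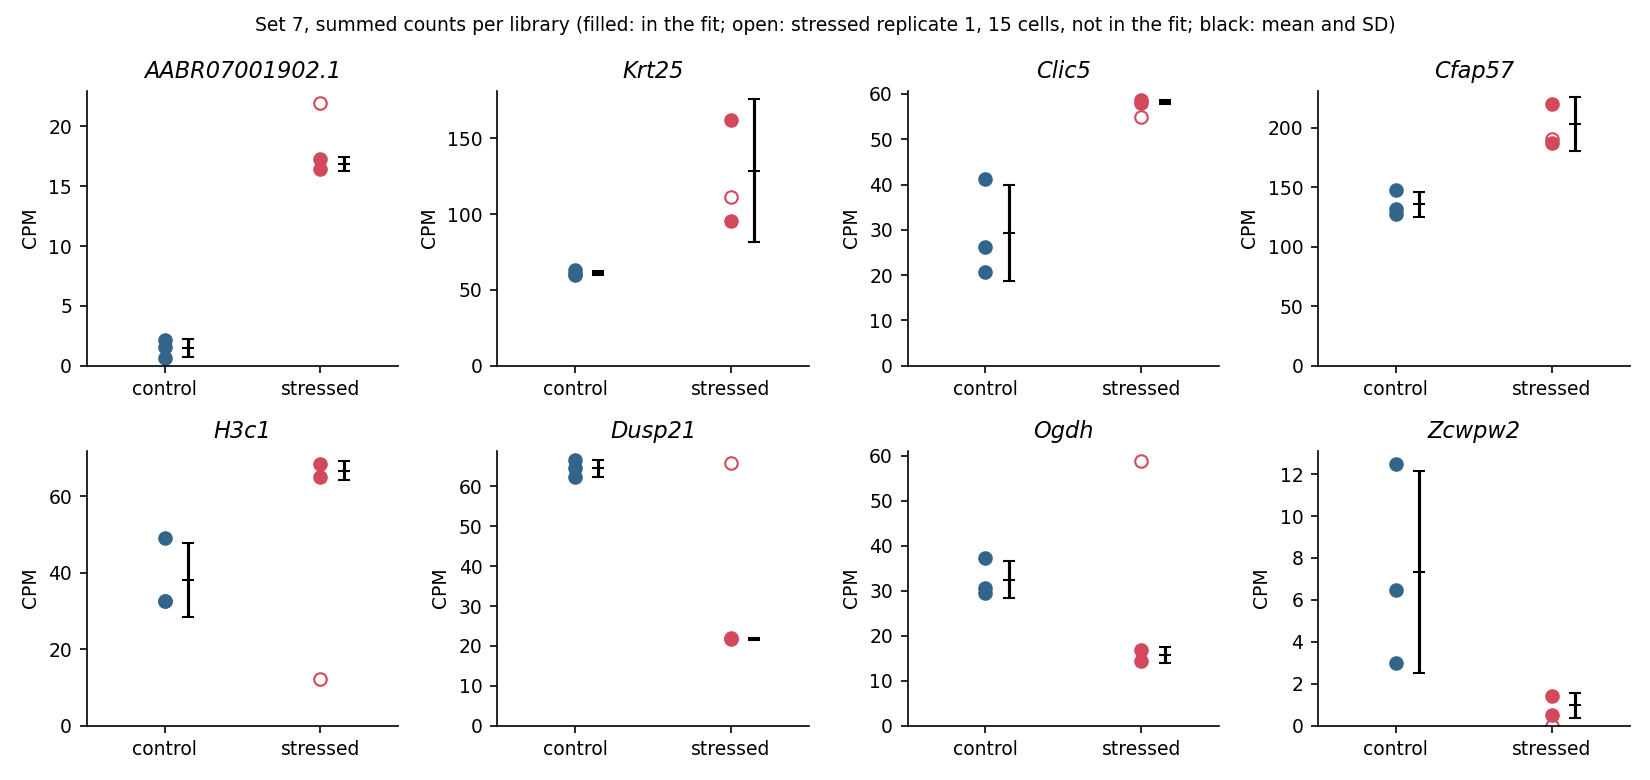
CPM of 8 of the genes named for the stress comparison in set 7, 1 point for each library, with the mean and SD of the fitted libraries in black; filled points are TMM-scaled and in the fit, and the open point is the unscaled value in the 15 cells of stressed replicate 1. Dusp21, Ogdh and H3c1 have the open point away from the other stressed libraries.

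The genes named for their role did not pass the test. Tnp1 differed by 0.10 on the log2 scale with a standard error of 0.32, Prm3 by 0.26 with 0.20, Hmgb4 by 0.36 with 0.35, H2bl1 by 0.15 with 0.30 and H1f7 by -0.03 with 0.21 (edgeR adjusted p = 0.999 for each). Hmgb4 was at 5406, 4596 and 11946 CPM in the controls, and without control replicate 3 its difference was 0.91 (edgeR adjusted p = 0.0156). Kat8 differed by -0.06 with a standard error of 0.20, Kansl2 by -0.40 with 0.64, Kansl3 by 0.46 with 0.54 and Phf20 by 0.95 with 1.03. Nr3c1, the glucocorticoid receptor, stood at 4.59, 2.05 and 0 CPM in the controls and at 3.80 and 7.22 CPM in the stressed libraries, found in 33 class cells in all. Its chaperones Hsp90aa1, Hsp90ab1 and Fkbp4 differed by -0.07, -0.45 and -0.51 with standard errors of 0.27, 0.35 and 0.35. Hsp90ab1 stood at 64.4 CPM in stressed replicate 1 against 12.3 to 20.8 CPM in the other 5 libraries.

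The gene lists held no called gene either. Of 17 acrosome genes, 6 were higher and 11 lower in the stressed mean, with a median log2 difference of -0.08 beside -0.02 over all genes. Groups did not overlap for 2 of them, Acr and Spaca3, both lower, beside the 17.9% of all genes. Of 9 tested genes of the glucocorticoid list, 4 were higher and 5 lower, and the groups did not overlap for 2. Of 13 heat shock genes 6 were higher and 7 lower, and the groups did not overlap for 3. Of 14 chromatin regulators 9 were higher and 5 lower, and the groups did not overlap for 3. Of 15 genes of mRNA storage 6 were higher and 9 lower, and the groups did not overlap for 3. Counts this near to 17.9% are not a result about these lists.

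Whether the stress difference was other in the class than in its neighbours was tested as an interaction with the library as block. No gene passed against set 6, 0 of 9941 (0%, 261 at an unadjusted p under 0.05), and none against set 8, 0 of 9489 (0%, 180 at an unadjusted p under 0.05), by edgeR with Benjamini-Hochberg adjustment. Dusp21 was among the smallest p against set 6, where it stood at 134, 161 and 72.5 CPM in the controls and at 84.7 and 98.2 CPM in the stressed libraries. The difference of the differences was -1.22 with a standard error of 0.30 (edgeR adjusted p = 1). With no filter on low counts it was the 1 gene called against set 6. The others at the smallest p were Lcn2 (0.75) and Pabir1 (1.30) on the higher side and Cd63 (-2.83) on the lower side, as log2 differences of the differences. Cd63 was at 2.71 and 0.595 CPM in the stressed libraries of the class, so its size rests on low values. Sfrp2 was also on the lower side, at 0.301 and 0 CPM in those libraries, so no size is given for it. Pinlyp was also on the higher side, but it was at 0 in both stressed libraries of set 6 and at most 3.18 CPM elsewhere, so its fitted value has no meaning as a size. Lcn2, lipocalin 2, stood in the class at 76.7, 135 and 105 CPM in the controls and at 98.8 and 174 CPM in the stressed libraries, and in set 6 at 80.4, 116 and 100 CPM and at 61.0 and 89.4 CPM. Against set 8 they were Scd2 (1.82), Rpl15 (0.74) and Chgb (3.30), and Sugt1 (-1.33) and Hdgfl3 (-1.69). Chgb was at 0.543 and 1.88 CPM in the stressed libraries of set 8, so its size rests on low values. Lin7c was also on the lower side, at 0 to 0.122 CPM in the controls of set 8, so no size is given for it. Sugt1, a co-chaperone, stood in the class at 55.7, 44.2 and 68.4 CPM in the controls and at 34.1 and 22.1 CPM in the stressed libraries, and in set 8 at 18.3, 19.8 and 42.4 CPM and at 27.7 and 36.1 CPM.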

How the data were processed

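Per the labels' protocols, minced tissue was dissociated, GEXSCOPE libraries were prepared and paired reads came from an Illumina NovaSeq. Aligner, genome build, annotation, cell filter and doublet removal: not given in the sources used here. The deposited counts are whole numbers per gene and cell, and no source says if they count reads or molecules. From 12.4% to 18.4% of the values above 0 were 1. The deposited normalized values are natural logs, ln(1 + x) with x the count per 10000 counts of the cell, as recomputed from the counts, and they served only to score cells.

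Total counts were 16756543 to 114984746 per library, and no library pair of a group agreed within sampling noise (chi-square per degree of freedom 17.3 to 98.5 over class sums). 2 barcodes occurred in a pair of libraries, 0 of them in class cells. The members, lists and tests were chosen with earlier results of these data known. Of 450 listed genes, 422 were found. Levels are CPM of counts summed over class cells, and list counts use genes of at least 5 CPM on average over sets 6 to 8; ratios use a pseudocount of 1. The class against other sets is a description with no test, since its cells were chosen on expression. Stress was tested with edgeR 4.0.16 (TMM, filterByExpr, robust quasi-likelihood, Benjamini-Hochberg, called under 0.05) in R 4.3.3, on libraries with at least 20 class cells, and with DESeq2 1.42.0 as an alternative. The p-values measure the spread between these libraries. Scripts were tested on simulated data. Python 3.11.15 was used with scipy 1.17.1. No doublet caller was run. Named genes are the 15 with symbols and at least 50 CPM whose mean log2 ratio to the highest other set was highest, the 8 with symbols at the smallest p in each direction for stress, the 3 in each direction for an interaction, and listed genes by role.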

Additional observations from a re-analysis of the deposited data

How the results depend on the processing

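Only 2 stressed libraries entered the stress fit, so it had 3 residual degrees of freedom before edgeR's pooling, and leaving out stressed replicate 1 changed nothing there because it was already out. Called genes were 0 in the fit as reported, 7 with no filter on low counts, 4 by DESeq2 and 0 to 10 when each library was left out in turn, the 10 without control replicate 3. Replicate numbers were not shown to pair the rats. The check correlated, over genes, the deviations of log CPM from the group means, and gave 0.0362 and 0.0327 for the 2 same-numbered pairs. It cannot decide on pairing, since the deviations of 2 stressed libraries are exact opposites and each control gave values of opposite sign. With a replicate block 1 gene was called, Olr1696 (edgeR adjusted p = 0.000496). Its control values were 0, 7.36 and 18.0 CPM, and it stood at 4.11 CPM in stressed replicate 1, outside that fit. Scaling by RLE, other memberships of the class, leaving out the 5% of class cells with the highest counts, and keeping stressed replicate 1, which was chosen after seeing the data, each gave 0. The interaction with set 6 had 1 called gene with no filter and 0 in every left-out library, and that with set 8 had 0 in all settings run. The share of cells in the class, stressed minus control, ran from -3.65 to 1.83 points when libraries were left out, with 0.827, 1.83 and 0.152 points without control replicate 2, stressed replicate 1 and stressed replicate 3. The number of listed genes above both sets 6 and 8 was 2 to 5 when libraries were left out. Of 31 named genes, 8 changed sign in at least 1 fit, none of them called there. With stressed replicate 1 kept, the log2 difference was 0.50 for Hsp90ab1, -0.061 for H2bl1, 0.13 for Hsp90aa1 and 0.050 for Hils1, and with the replicate block it was 0.12 for Hils1. When libraries were left out in turn it ran from -1.28 to 0.18 for Kansl2, -0.098 to 0.51 for H2bl1, -0.18 to 0.47 for Tnp1, -0.11 to 0.0091 for Kat8, -0.23 to 0.22 for Hsp90aa1, -0.31 to 0.17 for Hils1 and -0.20 to 0.14 for H1f7. The cause of these changes was not tested.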

Other observations

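Of 20 nuclear genes of the respiratory chain and ATP synthase at 5 CPM or more, 12 were below set 6 in all 5 libraries, beside 40.4% of all genes, and none was above it, with a median log2 difference of -0.53 beside -0.29 over all 5318 genes. Ndufa5, of complex I, stood at 260 ± 48.4 CPM against 709 CPM in set 6 and 129 CPM in set 8 (SD, n = 5 libraries), and Cox4i1, of complex IV, at 246 ± 31.5 CPM against 370 and 191 CPM. Atp5po was the exception among the listed ATP synthase genes, below both sets in all 5 libraries, at 126 ± 8.19 CPM against 145 and 153 CPM. Of 10 genes of oxidative stress defence, 3 were above set 6 in all libraries and 5 below it, beside 11.2% and 40.4% of all genes. Gpx4, the selenoprotein that becomes part of the sperm mitochondrial capsule, was above set 6 and below set 8 in every library (6238 ± 775 CPM against 5043 and 7185 CPM), while Txndc8, a spermatid thioredoxin, went from 626 to 342 ± 24.4 CPM.

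Of 17 ubiquitin and proteasome genes, 4 were above set 6 in all libraries and 6 below it, beside 11.2% and 40.4% of all genes. Ube2j1, a ubiquitin-conjugating enzyme of the endoplasmic reticulum, stood at 877 ± 174 CPM against 704 CPM in set 6. Of 11 heat shock genes, 3 were above set 6 in all libraries and 4 below it, beside the same shares of all genes. Hspa2, the testis HSP70 of meiosis, stood at 75.6 ± 20.3 CPM against 251 CPM in set 6, and Hspa4l, an HSP110, at 1168 ± 66.7 CPM against 964 CPM.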
